A study of Mus musculus with 3 samples.

Results

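The clustered histone genes are the mouse genes whose symbols begin with Hist1h, Hist2h, Hist3h or Hist4h, pseudogenes left out. The rule took 67 of the 31053 genes in the files: 6 encode H1, 18 encode H2A, 18 encode H2B, 12 encode H3 and 13 encode H4. They were followed in single cells of the cochlear sensory epithelium, the strip of tissue that holds the hair cells and their supporting cells. All cultures, controls included, came from rtTA/tet-on-Myc/tet-on-NICD mice of 4 to 6 weeks, in which doxycycline (Dox) lets rtTA switch on a Myc transgene and a transgene for the Notch intracellular domain (NICD). The treated explants received 2 µg/ml Dox for 4 days and gave 2 libraries, and the control explants received sterile water and gave 1 library. Each library pooled 4 cultures. No library had Dox without the transgenes, so the drug and the transgenes cannot be told apart, and the labels do not give the promoter that drives rtTA.

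Histones package DNA into nucleosomes: H2A, H2B, H3 and H4 form the core around which DNA is wound, and H1 binds the linker DNA between cores. The clustered genes are replication-dependent, which means that their mRNAs accumulate while DNA is copied in S phase and are degraded when copying ends. These mRNAs are known for ending in a conserved stem-loop in place of a poly(A) tail, and the stem-loop binding protein, SLBP, directs their processing, translation and decay. Adult cochlear supporting cells are largely quiescent in mammals, and the libraries were made with a kit that primes on poly(A). The values below therefore count the molecules that this chemistry captured, and an order of genes is an order of captured molecules, not of mRNA.

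The stem-loop is shown for the genes on which the results turn, because it is the feature that sets these mRNAs apart from other transcripts. Capitals mark the 16 bases of the stem, the loop and the second arm of the stem, read 5′ to 3′ on the strand of the gene from the GENCODE M21 transcripts of GRCm38.
Hist1h1e: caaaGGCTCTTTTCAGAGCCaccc
Hist1h1c: aaaaGGCTCTTTTCAGAGCCacca
Hist1h2ae: caaaGGCTCTTTTCAGAGCCattc
Hist1h3c: aaaaGGCTCTTTTAAGAGCCacct
Hist1h4d: caaaGGCCCTTTTCAGGGCCacta
Hist1h4h: caaaGGCCCTTTTCAGGGCCgccc
Hist3h2ba: caaaGGCTCTTTTCAGAGCCacct
Hist3h2a: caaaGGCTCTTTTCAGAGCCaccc
Such a sequence was found after the coding sequence of 46 of the 67 genes (68.66%), against 35 of 21640 other protein-coding genes (0.16%). The first arm read GGCTCT in all 34 stem-loops of H1, H2A, H2B and H3 genes, and in the 12 stem-loops of H4 genes it read GGCCCT in 10 and GGTCCT in 2. The annotated end of the other 21 genes, among them Hist1h1b and Hist1h2bc, holds no match, which says only that these letters are not in the annotated stretch.

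The genes lie in clusters: 54 are on chromosome 13, 10 on chromosome 3, 2 on chromosome 11 and 1 on chromosome 6. Hist1h1e (ENSMUSG00000051627) is at chr13:23620629-23622558 on the minus strand of GRCm38, Hist1h1b (ENSMUSG00000058773) at chr13:21779883-21780625 on the minus strand and Hist1h2bc (ENSMUSG00000018102) at chr13:23684199-23692908 on the plus strand. Many of these genes are near copies of each other. In 28 of them, 7 of the 20 with most captured molecules included, under 50% of the 91-base windows over the last 400 bases of the transcript are found in no other transcript, so reads could be shared or lost. For Hist1h1e and Hist1h2ap this share was 0%, and Hist1h1e also overlaps Hist1h2be on the same strand. Values of single genes from such pairs are uncertain, and sums over a class are less so where both genes belong to the same class. Hist1h1e is an H1 gene and Hist1h2be an H2B gene, so the H1 and H2B sums below share the uncertainty of this pair. How many reads the pair shared or lost was not tested.

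The files list 2395 cell barcodes, of which 1996 were kept: 636 and 997 in Dox replicates 1 and 2 and 363 in the control library, with medians of 16724.5, 27579 and 6887 unique molecular identifiers (UMIs, each marking 1 captured molecule). The libraries hold 20309102 and 33385927 UMIs (Dox) and 5436731 UMIs (control) in all. Reads of a transgene and of the mouse's own gene cannot be told apart in these counts. Notch1 had 430.8 and 327.2 CPM (the UMIs of a gene scaled to a library total of 1e6) in the Dox libraries and 43.5 CPM in the control library, and Myc had 60.9 and 52.8 CPM in the Dox libraries and 37.7 CPM in the control library. The libraries share barcodes: 125 barcodes were listed in more than 1 library, and the shallower copies held 0.259% to 1.68% of the UMIs of the deepest copy, with a median of 690 UMIs. Among kept cells, 41, 72 and 80 were such shallow copies in Dox replicate 1, Dox replicate 2 and the control library. Results that rest on them are given with and without them.

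Of the 67 genes, 65 had UMIs, 53 had at least 50 and 12 had between 1 and 49. Hist1h2bq and Hist1h2ba, an H2B gene known from testis, had 0 UMIs in 58547729, which allows up to 0.0512 CPM. The genes together held 94499 UMIs, 91.2% of them in 20 genes and 38.6% in Hist1h1e and Hist1h1b alone. H1 genes held 48.7% of the UMIs, H2A genes 21.5%, H3 genes 11.8%, H4 genes 10.3% and H2B genes 7.83%. The H1 share was thus the largest although this class has the fewest genes.

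In all kept cells, Hist1h1e, a linker histone gene, had 252.9 and 398.5 CPM in the Dox libraries, against 112.0 CPM in the control library. Hist1h1b, another linker histone gene, had 177.7 and 413.2 CPM in the Dox libraries, against 62.4 CPM in the control library. For both genes the Dox libraries were above the control library, and the distance between the 2 Dox libraries was itself large. The leading core histone genes were Hist1h2ae, an H2A gene, with 111.5 and 180.1 CPM in the Dox libraries and 34.3 CPM in the control library, and Hist1h3c, an H3 gene, with 79.9 and 149.4 CPM in the Dox libraries and 21.3 CPM in the control library. The leading H4 gene, Hist1h4d, had 98.7 and 131.1 CPM in the Dox libraries, against 51.5 CPM in the control library. The leading H2B gene, Hist1h2bc, had the opposite order, with 33.1 and 37.4 CPM in the Dox libraries and 50.5 CPM in the control library. It was the one gene among the 20 in which the control library lay above both Dox libraries.

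**Figure D1:**
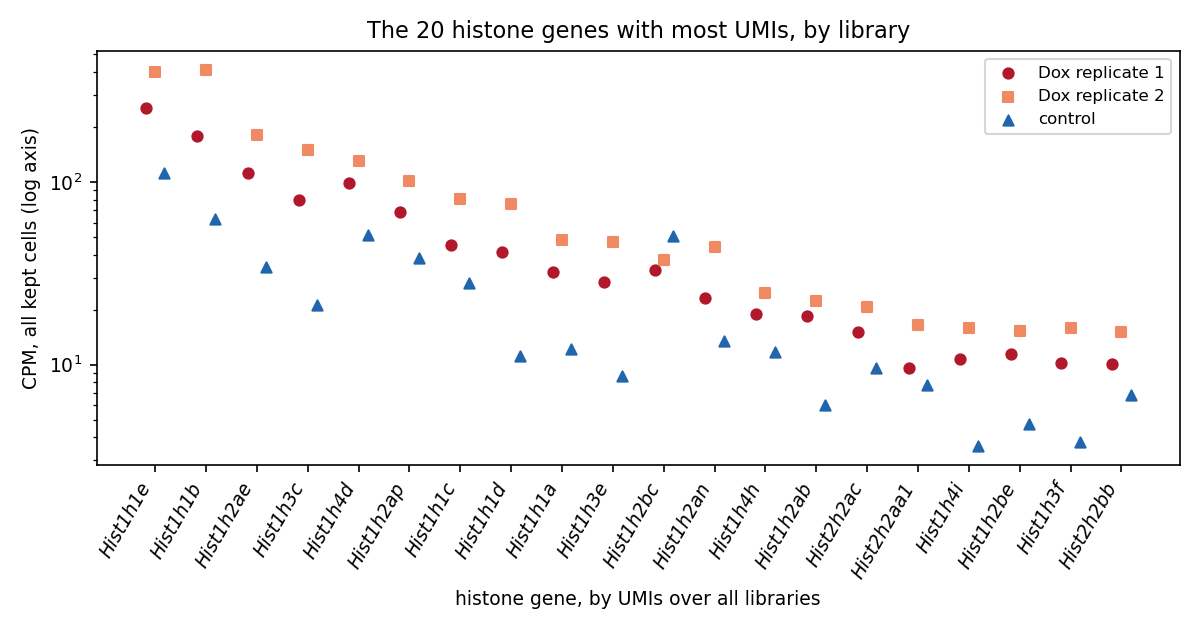
CPM of the 20 histone genes with most UMIs, summed over all kept cells of each library (log axis; circles, Dox replicate 1; squares, Dox replicate 2; triangles, control). Hist1h2bc, at 33.1 and 37.4 CPM in the Dox libraries and 50.5 CPM in the control library, is the gene whose control point is the top one.

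Cells were called cycling where at least 0.2% of their UMIs, and at least 3 UMIs, came from 54 genes of S phase and of G2 and mitosis, none of them a clustered histone gene. There were 216 such cells in Dox replicate 1 (34.0%), 428 in Dox replicate 2 (42.9%) and 56 in the control library (15.4%). Without the shallow copies the cycling cells were 205 (34.5%), 405 (43.8%) and 12 (4.24%), because 44 of the 56 control cells were such copies. Between 0.15% and 0.25%, near the limit, lay 44 and 58 Dox cells and 0 control cells. Cycling cells were deeper than non-cycling cells in the Dox libraries, with median UMIs of 37003.5 and 41629.5 against 12696 and 19568, and shallower in the control library, with 751 against 10668.

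In cycling cells the clustered histone genes made up 2128.3, 3100.6 and 2256.7 CPM in Dox replicate 1, Dox replicate 2 and the control library, against 312.2, 390.1 and 303.6 CPM in non-cycling cells of the same libraries. Each library had its higher sum in cycling cells, by 6.82-fold and 7.95-fold in the Dox libraries and 7.43-fold in the control library, a mean log2 ratio of 2.88 ± 0.11 (SD, n = 3 libraries). Without the shallow copies the control library had 2275.6 CPM in its 12 cycling cells and 299.8 CPM in its non-cycling cells. One control cell, of the macrophage-like cluster, held 27.6% of all histone UMIs of the control library. Without the macrophage-like cells the control library had 1100.8 CPM in 52 cycling cells, against 311.6 CPM in 288 non-cycling cells. Doublets were not removed.

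The classes differed in how far cycling and non-cycling cells stood apart. H3 genes had 263.5, 392.4 and 265.3 CPM in cycling cells of Dox replicate 1, Dox replicate 2 and control, against 14.5, 22.8 and 8.5 CPM in non-cycling cells, folds of 18.1, 17.2 and 31.2. H2A genes had 522.1, 677.5 and 772.2 CPM in cycling cells, against 31.8, 39.5 and 29.6 CPM in non-cycling cells, folds of 16.4, 17.2 and 26.1. H1 genes lay between the classes, with 958.4, 1566.1 and 888.1 CPM in cycling cells, against 139.0, 192.1 and 122.0 CPM in non-cycling cells, folds of 6.89, 8.15 and 7.28. H4 genes had 232.9, 280.2 and 216.4 CPM in cycling cells, against 59.0, 57.8 and 55.1 CPM in non-cycling cells, folds of 3.95, 4.85 and 3.93. H2B genes were the least apart, with 151.5, 184.4 and 114.5 CPM in cycling cells, against 67.8, 78.0 and 88.3 CPM in non-cycling cells, folds of 2.23, 2.37 and 1.3. Of the non-cycling H2B sums, Hist1h2bc alone made up 44.8, 53.5 and 56.0 CPM, and Hist3h2ba 13.4, 11.5 and 18.7 CPM. Both genes were lower in cycling cells, so the H2B fold does not describe each H2B gene. In every library the H3 and H2A folds were the 2 largest and the H2B fold the smallest, and the H3 and H2A folds overlapped between libraries. These folds between classes were not tested. The control levels and folds depend on 4 cycling macrophage-like cells. Without macrophage-like cells the control cycling cells held 630 histone UMIs, at 1100.8 CPM over all classes. The leading H2A gene, Hist1h2ae, then had 80.4 rather than 230.4 CPM there, and the leading H3 gene, Hist1h3c, 90.9 rather than 155.0 CPM. The control H2A level above both Dox libraries and the large control folds should be read with this limit.

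**Figure D2:**
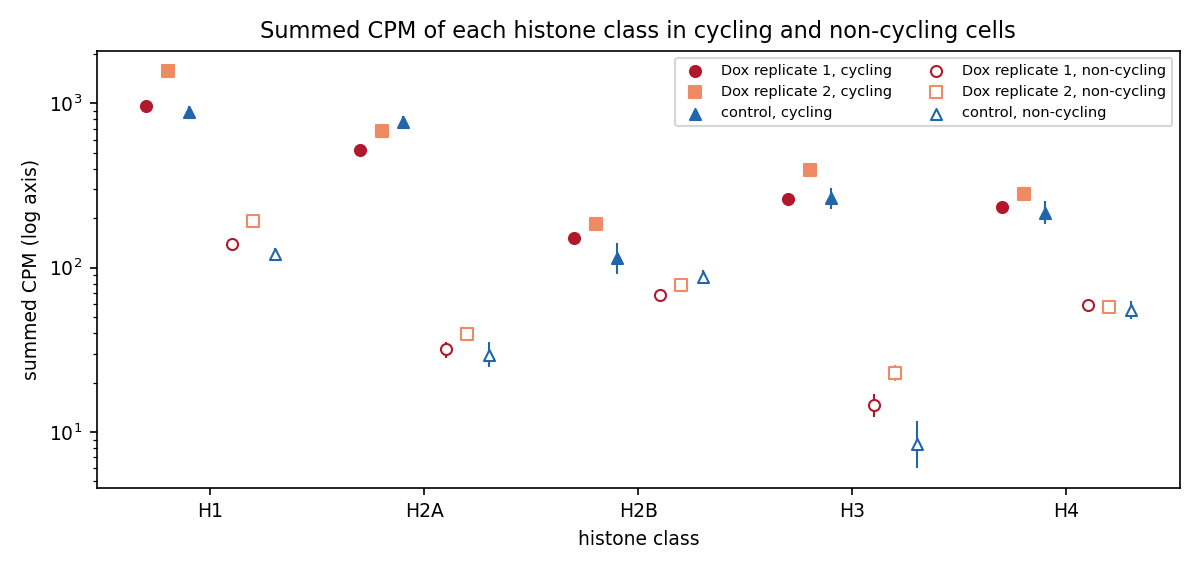
Summed CPM of each histone class (log axis) in cycling cells (filled) and non-cycling cells (open) of each library, with exact Poisson 95% intervals that cover counting error only. H3 and H2A stand farthest apart, H2B the least, with 2.23, 2.37 and 1.3-fold in Dox replicate 1, Dox replicate 2 and control. Hist1h2bc alone made up 44.8, 53.5 and 56.0 CPM of the non-cycling H2B sums in the same order. The control cycling sums include 4 macrophage-like cells, and without macrophage-like cells all classes together had 1100.8 CPM there.

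Sums per library and state were compared with edgeR's quasi-likelihood test with the library as a block and Benjamini-Hochberg adjustment over 13742 genes. Of the 51 histone genes with enough UMIs to be tested, 34 rose in cycling cells (7.16% of all genes tested did) and 1 fell (3.34% of all genes did). Their median log2 fold change was 3.37, beside -0.05 over all genes. The genes that rose were 5 of 5 H1, 9 of 14 H2A, 10 of 14 H2B, 7 of 9 H3 and 3 of 9 H4 genes, and the gene that fell was an H2B gene. With the library totals alone as scaling, the median of all genes was -0.11. The test has 2 residual degrees of freedom and rests on Dox replicate 2: without it 0 genes rose (the smallest adjusted p was then 0.0828 for the genes named here), without Dox replicate 1 17 rose and without the control library 46 rose. For the fits with a library left out, the share of all genes called is not given here. Of the 34, 30 rest on more than 3 UMIs in non-cycling cells.

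Hist1h1b had 351.3, 679.4 and 420.3 CPM in cycling cells of Dox replicate 1, Dox replicate 2 and control, against 3.61, 13.5 and 6.54 CPM in non-cycling cells. The states did not overlap, 98.6% of its UMIs were in cycling cells, and the log2 fold change was 6.10 (SE 0.22, adjusted p 0.00463 by edgeR's quasi-likelihood test). Hist1h3c was as closely tied to cycling cells, with 157.3, 245.4 and 155.0 CPM there, against 2.3, 5.04 and 0.436 CPM in non-cycling cells, and rose by 6.16 on the log2 scale (SE 0.38, adjusted p 0.00582 by edgeR). Hist1h2ae had 214.2, 291.3 and 230.4 CPM in cycling cells, against 8.51, 13.2 and 3.71 CPM in non-cycling cells, and rose by 4.91 (SE 0.30). Each of these genes was low outside cycling cells in all 3 libraries. Hist1h2ap had 134.0, 165.7 and 272.3 CPM in cycling cells, against 3.1, 4.67 and 1.74 CPM in non-cycling cells, and rose by 5.74 (SE 0.38). Hist1h1d and Hist1h1a, also linker histone genes, rose by 4.14 (SE 0.28) and 4.80 (SE 0.17). Hist1h2af and Hist1h2an, H2A genes, rose by 6.53 (SE 0.70) and 5.99 (SE 0.43). Hist1h3b rested on 3 UMIs in non-cycling cells, a ratio of 88.7 with an exact 95% interval of 30.1 to 433.

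Another set of genes rose in cycling cells from a level that non-cycling cells also had. Hist1h1e had 399.6, 576.5 and 286.3 CPM in cycling cells of Dox replicate 1, Dox replicate 2 and control, against 106.0, 131.1 and 84.8 CPM in non-cycling cells. Its log2 fold change was 2.00 (SE 0.11, adjusted p 0.00581 by edgeR's quasi-likelihood test), and 83.1% of its UMIs were in cycling cells. Hist1h4d had 160.5, 196.5 and 159.2 CPM in cycling cells, against 36.9, 32.7 and 34.7 CPM in non-cycling cells, and rose by 2.37 (SE 0.13, adjusted p 0.00582 by edgeR). Neither gene had overlapping states, and both had UMIs in the summed non-cycling cells of all 3 libraries. Hist1h1c had 67.6, 111.6 and 43.3 CPM in cycling cells, against 22.6, 35.3 and 25.5 CPM in non-cycling cells, and rose by 1.47 (SE 0.20, adjusted p 0.0189 by edgeR), but was not called without the macrophage-like cells (1.27, adjusted p 0.0953 by edgeR). Hist1h4h, which shares its 16 stem-loop bases with Hist1h4d in the sequences above, rose by 2.13 (SE 0.17).

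Hist1h2bc was the gene that fell in cycling cells. It had 21.5, 26.7 and 15.4 CPM in cycling cells of Dox replicate 1, Dox replicate 2 and control, against 44.8, 53.5 and 56.0 CPM in non-cycling cells. The states did not overlap, 34.9% of its UMIs were in cycling cells, and the log2 fold change was -1.13 (SE 0.18, adjusted p 0.0276 by edgeR's quasi-likelihood test). It was not called without Dox replicate 1 (-1.20, adjusted p 0.156 by edgeR), without Dox replicate 2 (-1.31, adjusted p 0.205) or without the library block (-1.14, adjusted p 0.0956). In human cells the gene of the same name is known to give polyadenylated mRNA in differentiated cells. The neighbours Hist3h2a and Hist3h2ba, an H2A and an H2B gene on chromosome 11, had the same order without passing the test. Hist3h2a had 4.7, 2.81 and 1.4 CPM in cycling cells, against 9.91, 8.88 and 10.0 CPM in non-cycling cells, for a fold change of -1.47 on the log2 scale (SE 0.33, adjusted p 0.0575 by edgeR). Hist3h2ba had 11.3, 5.26 and 8.38 CPM in cycling cells, against 13.4, 11.5 and 18.7 CPM in non-cycling cells, for a fold change of -0.72 on the log2 scale (SE 0.25, adjusted p 0.145 by edgeR). Both carry the stem-loop shown above, as do genes that rose in cycling cells. Whether its presence sorts the genes by state was not tested.

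**Figure D3:**
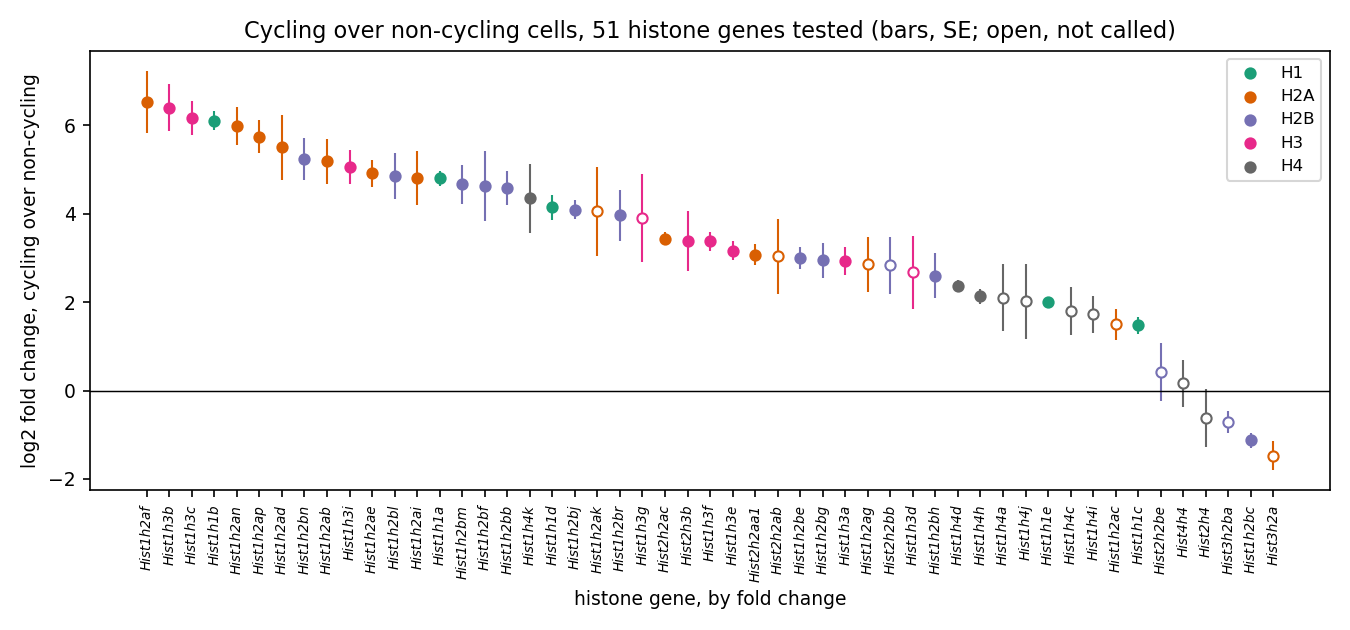
Log2 fold change, cycling over non-cycling cells, for the 51 histone genes tested, in order of size and coloured by class (bars, SE; open points, not called). Most points lie well above 0, and Hist1h2bc at -1.13 is the filled point below it.

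The genes were also grouped by the length of transcript annotated past the stem-loop, as a description. The 23 genes annotated for at least 100 bases past it held 51.0% of the UMIs, and the 20 of them that were tested had a median log2 fold change of 2.06 in cycling cells, with a range of -1.47 to 4.91. The 23 genes annotated for under 100 bases past it held 19.7% of the UMIs, and 15 tested had a median of 4.58, with a range of 2.13 to 6.39. The 21 genes without a stem-loop in the annotated end held 29.2%, and 16 tested had a median of 4.57, with a range of -1.13 to 6.53. The ranges overlapped widely, and the genes without a stem-loop had about the median of the set with the short ends. Hist1h1e, annotated for 1153 bases past its stem-loop, Hist1h4d, for 770, Hist1h1c, for 840, and Hist3h2a, for 1643, are in the first set. Capture on poly(A) and levels of mRNA cannot be told apart in these counts, and low members of each set did not enter the test.

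A view without dividing cells came from cluster 8, which held 38, 49 and 28 cells in Dox replicate 1, Dox replicate 2 and control, none of them called cycling. The markers among its leading genes were too few to name it. Of the marker lists, that of Schwann or satellite glia had the highest sum there in each library. It had 2226.7 and 3190.1 CPM in the Dox libraries and 7150.2 CPM in the control library, with all 16 genes counted in each. The fibroblast or fibrocyte list came next, with 1364.1, 878.5 and 1486.5 CPM in the same order. Hist1h1b had 0 and 3.64 CPM in the Dox libraries and 0 CPM in the control library there. Hist1h3c had 0 UMIs in each library, which allows up to 3.7 and 5.46 CPM in the Dox libraries and 10.1 CPM in the control library. Hist1h1e had 80.1 and 120.0 CPM in the Dox libraries, against 70.6 CPM in the control library, and Hist1h2bc had 51 and 55 UMIs in the Dox libraries and 23 UMIs in the control library. Hist1h1e and Hist1h2bc were thus counted here as well, in all 3 libraries. Other genes that non-cycling cells shared with cycling cells had fewer UMIs. Hist1h1c had 14, 20 and 6 in Dox replicate 1, Dox replicate 2 and control, Hist1h4d 16, 12 and 1, and Hist1h4h 2, 6 and 4. Hist1h2ae, low outside cycling cells above, had 13 and 8 UMIs in the Dox libraries and 0 in the control library.

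Since most of these genes moved together, the 250 bases before the start of 4 of them are shown, from RefSeq on GRCm38.p6: Hist1h1b (chr13:21780626-21780875, minus strand), Hist1h2ae (chr13:23571221-23571470, minus strand), Hist1h1c (chr13:23738557-23738806, plus strand) and, for contrast, Hist3h2ba (chr11:58948661-58948910, plus strand). Capitals mark the letters of the TATA box (TATAAA), the CCAAT box, the octamer (ATTTGCAT) and the H1 box (AAACACA), on either strand. In Hist1h2ae the marked TATA and octamer letters read on the opposite strand. The same bases lie before the start of the neighbour Hist1h2bg, on its own strand, so they need not belong to Hist1h2ae.
Hist1h1b: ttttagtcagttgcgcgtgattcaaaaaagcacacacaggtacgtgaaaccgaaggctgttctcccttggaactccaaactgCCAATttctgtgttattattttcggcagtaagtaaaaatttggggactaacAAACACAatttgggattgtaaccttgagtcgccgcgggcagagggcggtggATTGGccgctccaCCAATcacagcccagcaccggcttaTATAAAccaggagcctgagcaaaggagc
Hist1h2ae: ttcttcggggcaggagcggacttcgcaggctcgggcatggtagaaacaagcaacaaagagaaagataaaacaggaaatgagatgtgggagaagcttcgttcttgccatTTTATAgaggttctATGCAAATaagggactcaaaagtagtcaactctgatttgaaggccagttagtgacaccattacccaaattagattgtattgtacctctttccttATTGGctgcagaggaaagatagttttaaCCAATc
Hist1h1c: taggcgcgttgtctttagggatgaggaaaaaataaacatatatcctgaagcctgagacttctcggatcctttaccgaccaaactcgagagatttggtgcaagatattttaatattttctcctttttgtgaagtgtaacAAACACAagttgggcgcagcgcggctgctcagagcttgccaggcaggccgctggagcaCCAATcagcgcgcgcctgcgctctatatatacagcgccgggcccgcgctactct
Hist3h2ba: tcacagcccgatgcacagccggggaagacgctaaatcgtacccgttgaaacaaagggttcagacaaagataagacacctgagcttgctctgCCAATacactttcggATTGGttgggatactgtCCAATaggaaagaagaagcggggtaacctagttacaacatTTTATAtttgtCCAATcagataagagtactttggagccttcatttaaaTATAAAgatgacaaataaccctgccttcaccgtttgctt
Of the 61 genes matched to such a promoter, 50 hold CCAAT, against 34.46% of 27025 promoters in all, and 29 hold TATAAA, against 12.97%. The octamer, known from H2B promoters, was in 13 of the 61, against 1.61% of all promoters. The H1 box was in 9, against 6.22%, and both H1 promoters shown hold it. Hist3h2ba, which was not called higher in cycling cells, holds CCAAT and TATAAA as well. Whether these letters sort the genes by state was not tested. Matches on either strand were counted, in these genes and in all promoters, so a match can lie in the promoter of a neighbouring gene. Overlapping matches were not merged, and a match describes the letters and is not evidence of a bound factor.

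The same contrast within the epithelial-like clusters, those led by Epcam, Krt8 and Krt18, covered 101, 277 and 38 cycling cells of Dox replicate 1, Dox replicate 2 and control. Their histone genes summed to 1931.2, 2978.6 and 774.0 CPM, against 336.1, 399.8 and 407.3 CPM in the non-cycling cells. The Dox folds, 5.75 and 7.45, stood far above the control fold of 1.9, and 37 of the 38 control cycling cells were shallow copies of barcodes of other libraries. Of the 32 genes tested, 26 rose (9.28% of all genes tested did) and 2 fell (7.91% of all genes did), by edgeR's quasi-likelihood test. Hist1h1b had 303.0, 645.7 and 121.2 CPM in cycling cells, against 4.03, 16.1 and 3.26 CPM in non-cycling cells, and rose by 5.57 (SE 0.24, adjusted p 5.17e-07 by edgeR). Hist1h3c had 140.2, 227.0 and 56.0 CPM in cycling cells, against 4.34, 6.25 and 2.17 CPM in non-cycling cells, and rose by 5.11 (SE 0.18, adjusted p 3.46e-07 by edgeR). The genes that fell were Hist3h2a, by 1.58 on the log2 scale (adjusted p 0.0064 by edgeR), and Hist1h2bc, by 0.91 (adjusted p 0.0165 by edgeR). Without the shallow copies only the Dox libraries could be fitted, and 45 of 51 genes rose (18.1% of all genes tested did) and 2 fell (14.3% of all genes did).

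In the pericyte-like cluster, led by Pdgfrb, Abcc9 and Rgs5 among others, the Dox libraries had 30 and 21 cycling cells and the control library had 0 cycling cells among 4. The histone genes summed to 3114.4 and 3976.4 CPM in cycling cells of Dox replicates 1 and 2, against 287.2 and 316.1 CPM in non-cycling cells. Of the 32 genes tested, 31 rose (6.99% of all genes tested did) and 0 fell (3.2% of all genes did), by edgeR's quasi-likelihood test (31 rose and 0 fell at an unadjusted p under 0.05; 22 and 0 by DESeq2). Hist1h1b had 627.5 and 845.2 CPM in cycling cells, against 5.51 and 7.45 CPM in non-cycling cells, and rose by 6.79 (SE 0.18, adjusted p 2.41e-10 by edgeR). The gene that was not called, Hist1h2bc, had 15.1 and 21.2 CPM in cycling cells, against 20.2 and 30.6 CPM in non-cycling cells of the same libraries. It was thus lower in cycling cells in both libraries, at -0.49 on the log2 scale (SE 0.29, adjusted p 0.345 by edgeR). The median log2 fold change over the genes tested was 4.43, or 4.04 with the 4 genes at 0 UMIs in non-cycling cells set at their bound of 3 counts.

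Where in the cycle the histone genes were high was read from the S phase list's share of each cell's cycle-list UMIs, in 5 bins chosen after seeing the data and with no test, over cycling cells of the Dox libraries without shallow copies. The median cell had 431.7, 3775.7, 4207.0, 934.4 and 520.7 histone CPM in Dox replicate 1 at S shares of 0 to 20%, 20 to 40%, 40 to 60%, 60 to 80% and 80 to 100%. In Dox replicate 2 the medians in the same order were 784.6, 4123.8, 5398.3, 2731.6 and 619.9. Both libraries had their highest value in the middle bin and low values at both ends, and the 10 bins held 30 to 107 cells each. Hist1h1b followed the same course, with 189.3, 425.7, 566.5, 379.0 and 79.3 CPM in Dox replicate 1 and 409.1, 691.7, 1025.6, 869.4 and 202.5 CPM in Dox replicate 2. Hist1h2bc did not: its summed level lay between 15.3 and 28.3 CPM in Dox replicate 1 and between 20.6 and 32.5 CPM in Dox replicate 2 over the bins, with no common order. All 5 classes had their lowest summed CPM in the bin of 80 to 100% in both libraries.

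**Figure D4:**
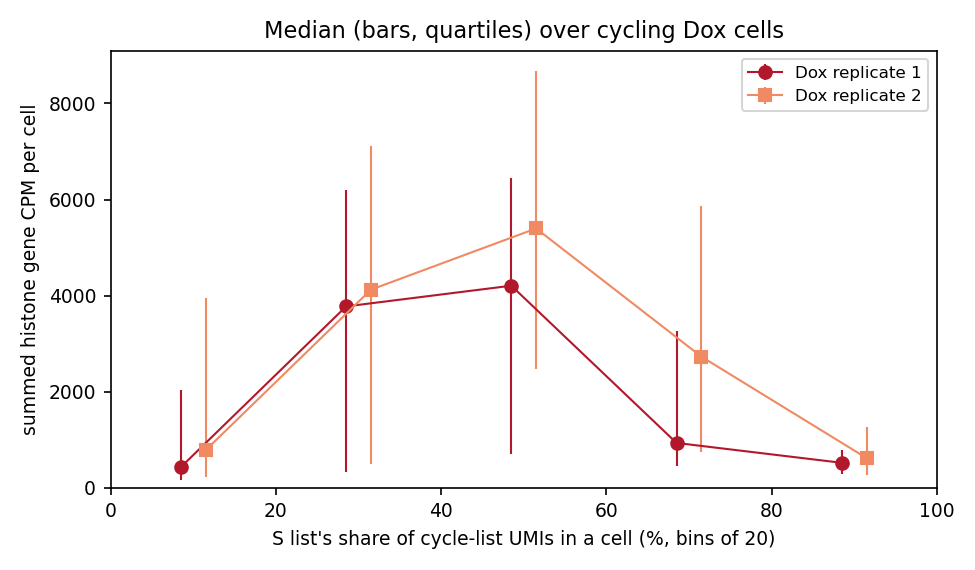
Histone CPM per cell against the S phase list's share of cycle-list UMIs (%, bins of 20), for cycling cells of the 2 Dox libraries without shallow copies (points, medians; bars, quartiles). Both curves peak in the bin of 40 to 60%, at 4207.0 CPM in Dox replicate 1 and 5398.3 CPM in Dox replicate 2.

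Cycling cells of all 3 libraries, shallow copies included, were also divided at equal S and G2/M counts and summed. This cut falls inside the bin of 40 to 60%, where the histone medians of the Dox libraries peaked. Both parts therefore hold cells of the peak and of a low end, and like sums in them cannot show a level that is even through the cycle. S-leaning cells had 1966.8, 3123.4 and 4203.0 histone CPM in Dox replicate 1, Dox replicate 2 and control, against 2223.4, 3089.3 and 1401.1 CPM in G2/M-leaning cells. The Dox libraries lay close together between phases and in opposite order, and the control library, with 14 S-leaning and 42 G2/M-leaning cells, stood apart. Shallow copies made up 12 of these 14 and 32 of these 42 control cells, which left 2 S-leaning and 10 G2/M-leaning control cells. Most of the control S-leaning sum came from a single macrophage-like cell with 830 histone UMIs. Without the shallow copies the Dox libraries had 1966.9 and 3124.0 CPM in S-leaning cells, against 2225.7 and 3091.1 CPM in G2/M-leaning cells. Of 49 genes tested, 0 were called higher (0.0506% of all genes tested were) and 0 lower (0.295% of all genes were) by edgeR's quasi-likelihood test, with 1 higher and 0 lower at an unadjusted p under 0.05, and 0 by DESeq2. In the Dox libraries alone, without the shallow copies, 1 of 52 genes was called higher (1.78% of all genes tested were) and 1 lower (2.12% of all genes were). Hist1h2an was higher in S-leaning cells, with 62.6 and 98.6 CPM against 35.9 and 59.7 CPM in G2/M-leaning cells (log2 fold change 0.74, SE 0.09, adjusted p 0.00159 by edgeR). Hist1h4h was lower there, with 22.7 and 28.9 CPM in S-leaning cells against 33.8 and 40.4 CPM in G2/M-leaning cells (-0.54, SE 0.11, adjusted p 0.0277 by edgeR).

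The comparison the study was built for sets Dox against control. Over all kept cells the histone genes summed to 1221.3 and 2017.2 CPM in the Dox libraries, against 567.3 CPM in the control library. Both Dox libraries were higher, by 2.15-fold and 3.56-fold, a mean log2 ratio of 1.47 ± 0.51 (SD, n = 2 Dox libraries over 1 control library). H1 genes had 549.2 and 1016.9 CPM in the Dox libraries, against 225.5 CPM in the control library. H3 genes had 139.1 and 244.7 CPM in the Dox libraries, against 43.2 CPM in the control library, and H2B genes had 109.7 and 141.9 CPM in the Dox libraries, against 91.8 CPM in the control library. H2A genes had 277.3 and 422.5 CPM in the Dox libraries, against 129.9 CPM in the control library, and H4 genes had 146.0 and 191.3 CPM in the Dox libraries, against 76.9 CPM in the control library. No class had overlapping groups. The share of cycling cells moved the same way, and a higher share of dividing cells and more histone mRNA per cell cannot be told apart in these sums.

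By edgeR's quasi-likelihood test, 14 of 57 histone genes rose with Dox (9.35% of all 15426 genes tested did) and 0 fell (7.82% of all genes did); at an unadjusted p under 0.05 the counts were 33 and 0, and by DESeq2 19 and 0. The median log2 fold change was 1.84, beside -0.01 over all genes. The 14 were 3 H1, 3 H2A, 4 H2B, 2 H3 and 2 H4 genes. For the CPM given above, Hist1h1e rose by 1.84 (SE 0.35, adjusted p 0.0409 by edgeR), Hist1h2ae by 2.38 (SE 0.39, adjusted p 0.0322), Hist1h3c by 2.73 (SE 0.51, adjusted p 0.0391) and Hist1h4d by 1.45 (SE 0.25, adjusted p 0.0349). Hist1h1d had 41.5 and 75.8 CPM in the Dox libraries, against 11.1 CPM in the control library, and rose by 2.70 (SE 0.51), and Hist1h2ab had 18.5 and 22.4 CPM in the Dox libraries, against 6.03 CPM in the control library, and rose by 2.05 (SE 0.28). Hist1h1b, at 2.54 (SE 0.63, adjusted p 0.0639 by edgeR), and Hist1h2bc, at -0.22 (SE 0.17, adjusted p 0.403 by edgeR), were not called. With 1 residual degree of freedom, the fit takes the spread of the Dox libraries for the control library too. The share of all genes called the same way is not given here for the unadjusted counts, for DESeq2 or for scaling by library totals. Those counts of histone genes therefore cannot be set against all genes. Scaled by library totals alone, the median of all genes moved to -0.30, 30.3% rather than 54.5% of all calls were higher, and 6 histone genes rose and 0 fell. Without the macrophage-like cells the sums were 1244.9 and 2031.7 CPM in the Dox libraries, against 402.9 CPM in the control library. Then 28 of 57 histone genes rose (12.2% of all genes tested did) and 0 fell (10.2% of all genes did), Hist1h1b among them at 3.84 (SE 0.69, adjusted p 0.0321 by edgeR).

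Within each state, how far the groups stood apart differed between sets of cells. In cycling cells the sums given above, 2128.3 and 3100.6 CPM in the Dox libraries and 2256.7 CPM in the control library, overlapped, with a mean log2 ratio of 0.19 ± 0.38 (SD, n = 2 Dox libraries). Of 56 genes tested in cycling cells alone, 1 was called higher with Dox (5.82% of all genes tested were) and 0 lower (6.9% of all genes were) by edgeR's quasi-likelihood test, with 7 higher and 1 lower at an unadjusted p under 0.05. The gene was Hist1h4a, an H4 gene, with 7.59 and 8.82 CPM in the Dox libraries and 0 UMIs in the control library, at least 2.01-fold higher at 3 counts. The control sum rested on few cells: the 4 cycling macrophage-like cells of the control library held 986 of its 1616 histone UMIs in cycling cells, at 6857.0 CPM, against which the cycling macrophage-like cells of the Dox libraries had 2776.0 and 2230.3 CPM. Without the macrophage-like cells the cycling cells no longer overlapped, with 2120.3 and 3117.3 CPM in the Dox libraries and 1100.8 CPM in the control library, a mean log2 ratio of 1.22. Then 14 of 56 genes were called higher (9.36% of all genes tested were) and 0 lower (8.69% of all genes were), by edgeR's quasi-likelihood test, and 8 of the 14 rest on more than 3 control UMIs. Hist1h1e had 398.8 and 579.6 CPM in those Dox cells, against 204.4 CPM in those control cells, and rose by 1.55 (SE 0.29, adjusted p 0.0209 by edgeR), and Hist1h1b had 347.8 and 681.6 CPM in the Dox libraries, against 171.2 CPM in the control library, and rose by 1.88 (SE 0.47, adjusted p 0.0441). With the deepest 5% of barcodes of each library left out, the mean log2 ratio in cycling cells was 1.32, and 0 genes were called. In cycling epithelial-like cells alone the Dox sums were 2.5-fold and 3.85-fold the control sum, and 7.55-fold and 11.6-fold without the shallow copies, which left 1 control cell.

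In non-cycling cells the sums were 312.2 and 390.1 CPM in the Dox libraries, against 303.6 CPM in the control library, a mean log2 ratio of 0.20 ± 0.23 (SD, n = 2 Dox libraries). There 0 of 34 genes were called higher (3.34% of all genes were) and 0 lower (2.79% of all genes were) by edgeR, with 8 higher and 2 lower at an unadjusted p under 0.05 and 0 in either direction by DESeq2. H3 genes stood farthest apart there, with 14.5 and 22.8 CPM in the Dox libraries, against 8.5 CPM in the control library. Without the macrophage-like cells the non-cycling sums were 319.5 and 394.0 CPM in the Dox libraries, against 311.6 CPM in the control library, and 0 genes were called higher (6.42% of all genes were) and 1 lower (5.69% of all genes were), the H2A gene Hist1h2ak, with 3 UMIs in the Dox libraries together and 18 UMIs in the control library. These comparisons within states were added after seeing the data, and they share the control library with the comparison over all cells. By library totals alone, 24.5% rather than 45.7% of all calls in cycling cells, and 28.6% rather than 54.5% in non-cycling cells, were higher.

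**Figure D5:**
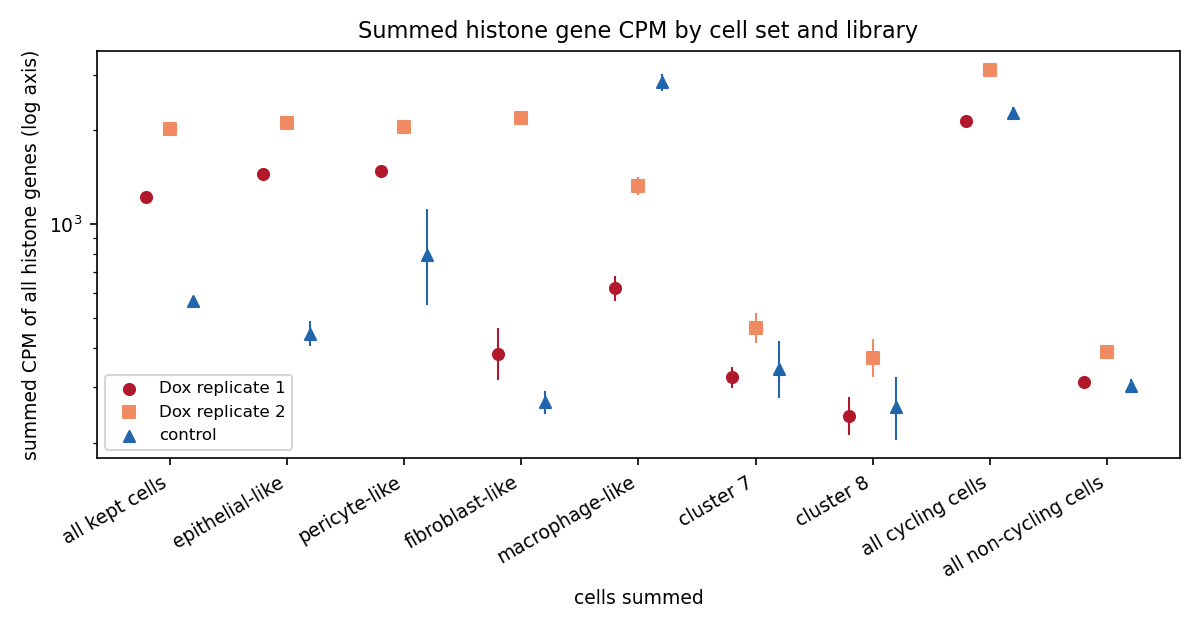
Summed CPM of the 67 histone genes (log axis) in each set of cells and each library, with exact Poisson 95% intervals that cover counting error only. Dox libraries lie above the control library in all kept cells and in the epithelial-like, pericyte-like and fibroblast-like cells, the macrophage-like cells have the opposite order (622.6 and 1327.2 CPM in Dox, 2843.1 CPM in control), and the groups overlap in cycling cells and in clusters 7 and 8. In non-cycling cells the Dox libraries, at 312.2 and 390.1 CPM, lie just above the control library, at 303.6 CPM.

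In the epithelial-like cells, 186, 539 and 91 in Dox replicate 1, Dox replicate 2 and control, the histone genes summed to 1444.9 and 2105.1 CPM in the Dox libraries, against 445.6 CPM in the control library. Both Dox libraries were higher, by 3.24-fold and 4.72-fold, a mean log2 ratio of 1.97 ± 0.38 (SD, n = 2 Dox libraries). By edgeR's quasi-likelihood test 29 of 56 genes rose (14.4% of all 13509 genes tested did) and 2 fell (11.5% of all genes did). Hist1h1e had 290.2 and 417.3 CPM in the Dox libraries, against 85.6 CPM in the control library, and rose by 2.28 (SE 0.28, adjusted p 0.00216 by edgeR). Hist1h1b had 211.8 and 432.4 CPM in the Dox libraries, against 15.6 CPM in the control library, where it had 16 UMIs, and rose by 4.61 (SE 0.62, adjusted p 0.00278 by edgeR). For both genes the Dox libraries stood well apart from the control library. Without the shallow copies the control library had 55 UMIs of Hist1h1e, or 55.8 CPM, and 2 UMIs of Hist1h1b in place of 16. Hist1h1e then rose by 2.91 (SE 0.31, adjusted p 0.00147 by edgeR). For Hist1h1b the fitted log2 fold change was 7.55 (SE 0.89, adjusted p 0.00193 by edgeR), and the ratio was 180 with an exact 95% interval of 49.9 to 1490. Of the 29 genes called higher without the shallow copies, 6 rest on more than 3 control UMIs. Hist1h2ap rested on 1 control UMI, a ratio of 108 with an exact 95% interval of 19.5 to 4280. Of the 29 genes, 11 rest on more than 3 control UMIs and 7 on 0, and the median log2 fold change of 3.09 was 1.25 with the 19 genes at 0 set at their bound.

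The genes that fell in the epithelial-like cells were 2 H2B genes, neither of which was called higher in cycling cells. Hist1h2bc had 30.5 and 33.3 CPM in the Dox libraries, against 91.4 CPM in the control library (log2 fold change -1.28, SE 0.18, adjusted p 0.00306 by edgeR's quasi-likelihood test), and Hist3h2ba had 11.8 and 7.77 CPM in the Dox libraries, against 47.7 CPM in the control library (-2.08, SE 0.31, adjusted p 0.00418 by edgeR). For both the control library was above the Dox libraries, but Hist3h2ba was not lower at other clusterings (log2 fold changes of 0.17 at resolution 0.5, 1.94 at resolution 2 and 0.04 with all genes), and Hist1h2bc was 0.57 with clusters named by a Wilcoxon ranking. Epithelial-like cells of the groups were not alike: 66 of the 91 control cells were in cluster 5, whose median was 727 UMIs, and the 16 genes of the supporting cell list summed to 609.2 and 409.4 CPM in the Dox libraries, against 3134.4 CPM in the control library, with 15, 16 and 12 of the 16 genes counted in Dox replicate 1, Dox replicate 2 and control. Their part in the result was not tested. In non-cycling epithelial-like cells the histone sums were 336.1 and 399.8 CPM in the Dox libraries, against 407.3 CPM in the control library. Without the shallow copies 32 control cells were left, 1 of them cycling, the sums were 1445.8 and 2105.8 CPM in the Dox libraries and 381.8 CPM in the control library, and again 29 genes rose (15.4% of all genes tested did) and 2 fell (11.9% of all genes did). By library totals alone 19 histone genes rose, and 37.9% rather than 55.6% of all calls were higher.

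Macrophage-like cells, led by Lyz2, C1qa and C1qb, had the opposite order, with 622.6 and 1327.2 histone CPM in the Dox libraries and 2843.1 CPM in the control library, from 50, 29 and 23 cells. By edgeR's quasi-likelihood test 0 of 20 genes rose (0.245% of all genes tested did) and 2 fell (0.323% of all genes did), with 0 and 11 at an unadjusted p under 0.05, and 0 and 1 by DESeq2. Hist1h2ap had 17.1 and 55.5 CPM in the Dox libraries, against 341.4 CPM in the control library (-3.18, SE 0.60, adjusted p 0.0208 by edgeR), and Hist1h2an had 10.6 and 27.7 CPM in the Dox libraries, against 151.1 CPM in the control library (-2.92, SE 0.59, adjusted p 0.0336 by edgeR). Few cells carried these sums. A single cell held 81.7% of the histone UMIs of the control macrophage-like cells, and the 2 highest cells held 96.9%; the highest cell held 52.8% in Dox replicate 1 and 45.5% in Dox replicate 2. With the deepest 5% of barcodes of each library left out, the mean log2 ratio was 0.41 in place of -1.65. In the non-cycling macrophage-like cells the sums were 204.7 and 229.7 CPM in the Dox libraries, against 140.5 CPM in the control library. The cells of this cluster also differed between libraries in their markers. The 14 macrophage markers summed to 24977.7 and 10254.3 CPM in the Dox libraries, against 22504.1 CPM in the control library, and the 12 neutrophil lineage markers summed to 24766.7 and 17290.5 CPM in the Dox libraries, against 14965.4 CPM in the control library. In Dox replicate 2 the neutrophil lineage sum was thus above the macrophage sum. The neutrophil lineage list was not particular to this cluster. In epithelial-like cells it summed to 3369.9, 5098.6 and 8010.2 CPM in Dox replicate 1, Dox replicate 2 and control, from 7, 8 and 3 genes. In the macrophage-like cells the 36 cochlear epithelial markers summed to 92.3 and 826.4 CPM in the Dox libraries, against 67.2 CPM in the control library. Their part in the result was not tested.

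In fibroblast-like cells, 14, 87 and 113 in Dox replicate 1, Dox replicate 2 and control, the sums were 384.8 and 2183.7 CPM in the Dox libraries, against 269.1 CPM in the control library. Dox replicate 2 stood apart, and 79 of the 113 control cells were in a cluster with 1 cell of each Dox library. Shallow copies made up 9 of the 14 cells in Dox replicate 1, 11 of the 87 in Dox replicate 2 and 0 in the control library. The 5 other cells of Dox replicate 1 held 276344 of its 283240 UMIs. With under 20 cells in Dox replicate 1, the class was not tested. In the pericyte-like cluster the sums were 1480.3 and 2047.7 CPM in the Dox libraries, against 797.2 CPM from 4 control cells, also not tested. Cluster 7 had 323.9 and 464.1 CPM in the Dox libraries, against 344.3 CPM in the control library, and cluster 8 had 244.0 and 372.8 CPM in the Dox libraries, against 259.0 CPM in the control library. In both clusters the groups overlapped. In cluster 7 the 36 cochlear epithelial markers summed to 7676.6 and 6730.3 CPM in the Dox libraries, against 12047.5 CPM in the control library. In the epithelial-like cells they summed to 6521.0, 7114.3 and 12489.1 CPM in the same order. The 16 genes of the supporting cell list summed to 2293.2, 2609.3 and 4457.1 CPM in cluster 7. Their part in the result was not tested. No histone gene was called by edgeR's quasi-likelihood test or by DESeq2 in cluster 7, with 0 of 7 in each direction (6.13% of all genes higher, 3.08% lower), or in cluster 8, with 0 of 6 (3.63% of all genes higher, 3.97% lower). At an unadjusted p under 0.05, 2 and 1 genes were higher and 0 lower. By library totals alone, 25.9% rather than 66.6% of all calls in cluster 7, and 30.7% rather than 47.8% in cluster 8, were higher.

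Genes that work with the clustered histones were read from 3 lists. Of 22 histone chaperones, which escort histones to and from DNA, 17 rose in cycling cells and 0 fell by edgeR's quasi-likelihood test (7.16% and 3.34% of all genes did), with a list median log2 fold change of 0.94. Asf1b, a chaperone of H3 and H4, had 18.3, 20.7 and 39.1 CPM in cycling cells of Dox replicate 1, Dox replicate 2 and control, against 1.9, 1.66 and 1.96 CPM in non-cycling cells, and rose by 3.72 (SE 0.26). Nasp, a chaperone known to guard the pool of free H3 and H4, had 275.1, 278.8 and 180.1 CPM in cycling cells, against 79.5, 85.1 and 59.9 CPM in non-cycling cells, and rose by 1.76 (SE 0.09, adjusted p 0.00535 by edgeR). Neither gene had overlapping states. Mcm2, also on the S phase list that chose the cells, is on the chaperone list and is no independent result.

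Of the genes of histone mRNA 3′ end processing and transcription, 21 of the 23 listed were analysed. Of the 20 tested, 10 rose in cycling cells and 0 fell by edgeR's quasi-likelihood test, and the list median was 0.64. The shares of all genes that rose and fell are those given with the chaperone list, here and for the replacement histones below. Slbp, the stem-loop binding protein, had 138.1, 136.4 and 96.4 CPM in cycling cells of Dox replicate 1, Dox replicate 2 and control, against 56.1, 56.8 and 57.1 CPM in non-cycling cells, and rose by 1.19 (SE 0.13, adjusted p 0.0138 by edgeR). E2f1, a transcription factor of S phase entry, rose by 2.33 (SE 0.16) and Eri1, an exonuclease that binds the histone stem-loop, by 0.96 (SE 0.10). Of 11 replacement histones, which are made outside S phase too and whose mRNAs have poly(A) tails in most cases, 4 rose and 0 fell, with a list median of 0.99. H2afx, the H2A variant that is phosphorylated at DNA breaks, had 210.8, 194.2 and 152.2 CPM in cycling cells, against 41.6, 43.9 and 31.6 CPM in non-cycling cells, and rose by 2.31 (SE 0.09, adjusted p 0.00489 by edgeR). H3f3b, which encodes the replacement histone H3.3, had 1332.4, 1415.6 and 1487.2 CPM in cycling cells, against 1259.5, 1321.8 and 1836.0 CPM in non-cycling cells, with no common order.

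With Dox, over all kept cells, 11 of 22 chaperone genes, 6 of 21 processing genes and 5 of 11 replacement histone genes rose and 0 fell by edgeR's quasi-likelihood test (9.35% and 7.82% of all genes did), with list medians of 1.02, 0.67 and 0.42. Npm1, a nucleolar histone chaperone, had 3558.0 and 4256.2 CPM in the Dox libraries, against 948.8 CPM in the control library, and rose by 2.34 (SE 0.19, adjusted p 0.0207 by edgeR). It was also apart in non-cycling cells, with 3112.7 and 3608.1 CPM in the Dox libraries, against 873.1 CPM in the control library. Slbp had 97.1 and 104.6 CPM in the Dox libraries, against 62.4 CPM in the control library, and rose by 0.99 (SE 0.15, adjusted p 0.03 by edgeR), while its non-cycling values of 56.1 and 56.8 CPM in the Dox libraries and 57.1 CPM in the control library lay within 1 CPM of each other. H2afx had 126.3 and 134.1 CPM in the Dox libraries, against 47.9 CPM in the control library, and rose by 1.74 (SE 0.16). In the epithelial-like cells 16 of 22 chaperone genes, 14 of 21 processing genes and 6 of 11 replacement histone genes rose and 0 fell (14.4% and 11.5% of all genes did).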

How the data were processed

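Per the labels' protocols, the 10x Genomics 3′ kit was used in its version 3.1. The authors deposited 1 matrix of UMI counts per gene and barcode for each library, and no column of another sample was found. The submitters' processing notes name Cell Ranger 5.0, STAR, Seurat 3.2.2 and the build mm10 (GRCm38), while the matrix headers give software version 3.1.0. What each tool did, and the treatment of introns, are not given in the sources used here.

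Barcodes were kept from 200 genes upward and up to a mitochondrial share of 20%, and no doublet caller was run. Cells were clustered in scanpy 1.11.5 (Python 3.11.15) by the Leiden method (leidenalg 0.10.2, igraph 0.11.9) at resolution 1, with 15 neighbours, 2000 variable genes and 30 components, leaving out the histone genes and cell cycle genes, which gave 19 clusters. A cluster was named where at least 3 markers of a type were among its 25 leading genes. The ranking of leading genes, by difference of mean log values, was chosen after cluster names and cell counts were seen. The names may differ from the study's.

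CPM in the text are UMIs scaled to a total of 1e6 over the cells summed. The sums per library went into the quasi-likelihood F test of edgeR 4.0.16 in R 4.3.3, after filterByExpr and TMM scaling. P-values were adjusted by Benjamini-Hochberg over the genes tested, and a gene was called up to an adjusted 0.05. Since the labels name pooled cultures only, these p-values reflect differences between libraries that may be technical. There was 1 residual degree of freedom for Dox and 2 for cycling cells. Classes needed 20 cells in each library. Intervals and limits at 3 counts cover counting error only. The steps were tested on simulated counts.

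The rule for named genes took the 20 with most UMIs, any called gene, and up to 4 per related list by smallest p. Members and lists were chosen with earlier results of these data known. Alternatives were DESeq2 1.42.0, other scalings, filters, clusterings and cycling limits, thinning to 2000 UMIs and each library left out. Leaving out shared barcodes, the deepest barcodes or the macrophage-like cells, a Wilcoxon ranking, comparisons within a state and the S share bins were added after seeing the data.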

Additional observations from a re-analysis of the deposited data

Results flagged for a closer look

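The Dox libraries lay above the control library in epithelial-like cells and below it in macrophage-like cells, so the mean log2 ratio of Dox over control, epithelial-like minus macrophage-like, was 3.62 for all histone genes. By class it was 5.95 for H2A, 5.0 for H3, 3.8 for H1 and 2.32 for H4. The difference itself was not tested, and 81.7% of the macrophage-like histone UMIs of the control library came from 1 cell.

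Barcodes left out by the filter carried histone UMIs too. They summed to 523.2 and 674.5 CPM in the Dox libraries, from 152 and 98 barcodes, against 37.8 CPM in the control library, from 149 barcodes and 5 histone UMIs.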

How the results depend on the processing

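The mean log2 ratio of summed histone CPM, Dox over control, kept its direction over all kept cells under every alternative run, at 1.11 and 1.83 with each Dox library alone, 2.08 without the deepest barcodes and 1.98 without the macrophage-like cells. It did so in epithelial-like cells too, at 1.70 and 2.24 with each Dox library alone, 2.56 when clustered on all genes, 2.55 at resolution 0.5 and 1.57 without the deepest barcodes. Cycling over non-cycling cells gave 2.83 to 2.94 with 1 library left out, 2.64 without the deepest barcodes and 2.51 without the macrophage-like cells. In epithelial-like cells it gave 1.72 to 2.71 with 1 library left out, and in pericyte-like cells 3.24 with a cycling limit of 0.1% and 3.37 with 0.4%. The macrophage-like ratio of -1.65 was -2.19 and -1.10 with each Dox library alone, -0.51 with cells thinned, 0.27 at resolution 2 and 0.41 without the deepest barcodes. Without Dox replicate 2 the ratios in cluster 7, cluster 8 and cycling cells alone were -0.09, -0.09 and -0.08, and without Dox replicate 1 they were 0.43, 0.53 and 0.46. The ratio in cycling cells alone was 1.32 without the deepest barcodes and 1.22 without the macrophage-like cells, and that in non-cycling cells alone was 0.62 at 0.4% and 0.04 to 0.36 with each Dox library alone. S-leaning over G2/M-leaning cells gave 0.47 in the main, -0.08 with the strict filter, without the control library or without shallow copies, -0.41 with cells thinned, -0.35 without the macrophage-like cells, and -0.08 to 0.80 with 1 library left out. The cause of these shifts was not tested.

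Counts of genes called moved as follows (edgeR unless named). Except where it is given above, the share of all genes called under the same setting is not shown. These counts therefore describe how calls moved, not how far they stood from that share. Higher with Dox in all kept cells: 6 by library totals, 27 without the deepest barcodes, 28 without the macrophage-like cells and 35 with no low-count filter. Higher with Dox in epithelial-like cells: 14 by DESeq2, 13 by Wilcoxon naming, 15 without the deepest barcodes or at resolution 2, 19 by library totals and 5 with cells thinned. Lower there: 1 when clustered on all genes, at resolution 0.5 or thinned, and 0 by Wilcoxon naming. Lower in macrophage-like cells: 0 by DESeq2's size factors, at resolution 2, thinned or without the deepest barcodes, 1 by DESeq2, 4 with the strict filter, 5 with no low-count filter or without shallow copies, and 7 by library totals or without cells of little Malat1. In cycling cells alone: 0 higher at 0.1%, without the deepest barcodes, by library totals or without cells of little Malat1, 3 at 0.4%, 14 without the macrophage-like cells, and 9 higher and 1 lower with no low-count filter. In non-cycling cells alone: 2 higher when thinned, 1 lower without the macrophage-like cells, and 4 higher and 1 lower with no low-count filter, which also gave 1 higher in cluster 7 and 1 in cluster 8. Cycling over non-cycling, all kept cells: 12 higher when thinned, 0 to 46 with 1 library left out, and lower 2 by DESeq2, without the macrophage-like cells, at 0.1%, with no low-count filter or with the strict filter, 0 at 0.4%, and 0 to 2 with 1 library left out. In epithelial-like cells: 45 higher when clustered on all genes, at resolution 0.5 or 2, without shallow copies or with no low-count filter, 12 when thinned, 11 to 45 with 1 library left out, and lower 1 by DESeq2, by Wilcoxon naming or at 0.1%, 0 when thinned, and 0 to 2 with 1 library left out. In pericyte-like cells 3 rose when thinned, of 5 tested. S-leaning over G2/M-leaning: 1 higher and 1 lower without shallow copies or the deepest barcodes, 2 and 1 with the strict filter, and 0 to 1 each with 1 library left out. Without the library as a replicate block, 31 genes rose and 0 fell in all cycling cells, 19 and 0 in the epithelial-like and 31 and 0 in the pericyte-like cells. No paired analysis was possible because the control library has 1 replicate number, so Dox and control share fewer than 2. Leaving out a Dox library left 1 against 1 and no test. For single genes 2331 values kept direction and call, 269 lost and 56 gained the call and 8 changed sign: Hist1h2bc at 0.78 and Hist2h2bb at -0.25 (Dox, thinned), Hist1h2bc at 0.57 (Dox, epithelial-like, Wilcoxon naming), Hist3h2ba at 0.17, 1.94 and 0.04 (Dox, epithelial-like, resolution 0.5, resolution 2, all genes), and Hist1h4h at 0.06 and 0.04 (S-leaning, without Dox replicate 1 and without Dox replicate 2, against -0.54 without the control library). Clusters 7 and 8 have no counterpart at other clusterings. Cycling cells held 10008711 and 19959598 UMIs in the Dox libraries, against 716105 UMIs in the control library, which limits what their comparison can show.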

Other observations

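Cluster 10, an epithelial-like cluster with 20 and 74 cells in the Dox libraries and 0 in the control library, had 2859.2 and 3272.5 histone CPM in Dox replicates 1 and 2. Its leading genes include Mki67, a proliferation marker, and H2afz. All 20 of its cells in Dox replicate 1 and 68 of 74 in Dox replicate 2 were called cycling. Cluster 1, whose markers were too few to name it, had 1392.2 and 2563.4 CPM in the Dox libraries, against 368.5 CPM in the control library. Its control value rests on 16 cells with 27140 UMIs in all. Malat1 made up under 0.1% of UMIs in 108 of its 119 cells in Dox replicate 1. The same held for 115 of 128 in Dox replicate 2 and 11 of 16 in the control library. Among single cells the spread was wide: the middle 50% of cycling cells lay between 300.6 and 4572.0 histone CPM in Dox replicate 1 and between 407.5 and 5728.9 CPM in Dox replicate 2. The lower quartile of cycling cells thus lay below the upper quartile of non-cycling cells, which was 426.7 CPM in Dox replicate 1 and 547.6 CPM in Dox replicate 2.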
